A study of Homo sapiens with 4 samples.

Results

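RNA of HCT116 colon cancer cell clones that stably expressed a short hairpin RNA (shRNA) against the long non-coding RNA N-BLR was measured on 4 Agilent 2-colour arrays, and the 2 arrays of clone #3-1 were set directly against the 2 arrays of clone #4-7. These 4 arrays were chosen by their titles and are all 4 arrays of the series. HCT116 is an established human colorectal carcinoma line, and each clone had been selected after the shRNA vector was introduced. Every array also carried RNA of 1 empty vector clone of the same line, so that the common RNA drops out of the difference between the clones. Each clone stands for 1 selected population. The array titles and the study's methods do not say whether the clones carry the same hairpin. Any effect of the hairpin cannot be told apart from that of the clone. The sources used here describe the delivery of the vector in different ways, as lentiviral transduction in the labels and as plasmid transfection in the study's methods. In the labels the paired arrays are biological replicates, whereas the methods speak of duplicate arrays only. The p-values therefore measure the spread between 2 arrays, which may be technical. All 4 arrays lay on 1 slide with the clones at different positions, so position and clone cannot be told apart. No probe carries the name of N-BLR, and the targeted RNA itself is not analysed here.

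A 2-colour array gives for each probe the signal of a red dye, Cy5, and of a green dye, Cy3. By the labels, red was the shRNA clone and green the empty vector throughout, with no dye swap. The values went against that assignment. Over 28541 bright probes the SD of the difference between the clones was 0.131 on the log2 scale in Cy5 and 0.460 in Cy3. The Cy5 signals of arrays of different clones correlated at 0.996 to 0.999 across probes, and the Cy3 signals at 0.981 to 0.984, while arrays of the same clone correlated at 0.998 and 0.999 in both channels. In the Cy5 channel 34 of 41000 probes, 0.0829%, passed limma p under 0.001 between the clones. No Cy5 probe had an adjusted p under 0.05, and 2629 of the 41000 had an unadjusted limma p under 0.05. In the Cy3 channel 7741 probes, 18.9%, passed. The channel labelled as the common control thus differed between the clones and the channel labelled as the clone hardly did. It is likely, but not settled, that Cy3 held the clones and Cy5 the common RNA. All values below are therefore log2 ratios of Cy3 over Cy5, and "higher" means more Cy3 relative to Cy5 on the #3-1 arrays than on the #4-7 arrays. If the dyes were as labelled, every sign of a ratio turns, and the sizes and counts of the ratios stay. Values of Cy3 alone, with the lower bounds and the statements on background in Cy3, would then describe the empty vector RNA and not the clones.

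**Figure D1:**
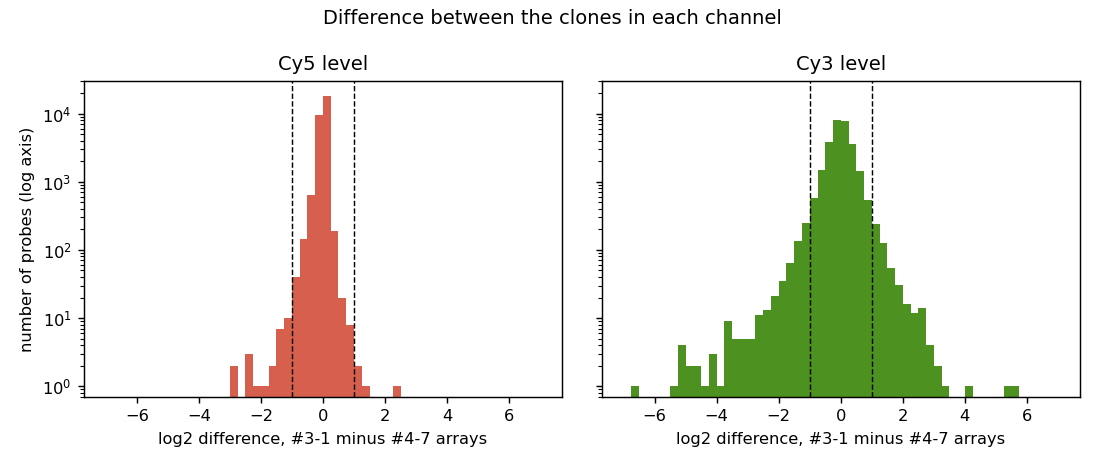
Number of probes (vertical log axis) by log2 difference between the #3-1 and the #4-7 arrays (horizontal axis, bins of 0.25), for the Cy5 level on the left and the Cy3 level on the right, over 28575 probes that rose well above background on each of the 4 arrays in 1 or both channels; dashed lines mark 2-fold. In Cy5 30 probes lay at or beyond 2-fold and in Cy3 1074.

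The ratio itself separated the clones at 9220 of 41000 probes, 22.5%, with limma p under 0.001, of which 4700 were higher and 4520 lower. A difference of at least 2-fold was met by 1017 of these probes, 2.48%, of which 496 were higher and 521 lower. The largest adjusted p of a probe past the threshold was 0.0044. With the brightest probe of each of 17531 named genes, 4849 genes passed (27.7%), 2508 of them higher (14.3%) and 2341 lower (13.4%). At 2-fold and beyond stood 535 genes (3.05%), 286 higher (1.63%) and 249 lower (1.42%). The median difference over all genes was -0.002 and the median absolute difference 0.16. These shares are the background against which each gene group is read. The cell line's epithelial markers were present in Cy3 in both clones: 12 of 15 intestinal epithelial genes were well above background on all 4 arrays, while CDH17, CDX1 and VIL1 were not well above background on any.

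Among the processes that set the clones apart, several are textbook examples of rapid gene control. Immediate early genes are transcribed within minutes of a growth factor, stress or mechanical signal, without new protein synthesis. Some of their promoters are read by serum response factor and its partners. Low oxygen stabilises HIF transcription factors, which switch on glycolytic enzymes, and low sterol releases SREBP factors, which switch on cholesterol synthesis. Metallothioneins, which bind zinc and copper, are driven by a metal-sensing factor, and histone genes of the large clusters are expressed with DNA replication. For 4 of these systems 1 promoter each is printed, because the gene is a leading or well known member of a group that separated the clones; each runs from 250 bases before to 50 bases after the transcription start in RefSeq (GRCh38.p14), 5′ to 3′ on the strand of the gene. Capitals mark the matches on either strand of the motif named with each gene.

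EGR1, zinc finger factor of the immediate early response (chr5:138465229-138465528, plus strand; CArG box, read by serum response factor): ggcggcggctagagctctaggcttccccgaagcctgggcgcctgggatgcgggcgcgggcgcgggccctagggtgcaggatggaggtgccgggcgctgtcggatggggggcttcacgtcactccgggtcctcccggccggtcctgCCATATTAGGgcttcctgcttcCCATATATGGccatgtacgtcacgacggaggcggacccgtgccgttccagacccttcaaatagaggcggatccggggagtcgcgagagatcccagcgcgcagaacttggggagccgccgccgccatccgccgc
CA9, the carbonic anhydrase used as a hypoxia marker (chr9:35673678-35673977, plus strand; ACGTG, the core of the hypoxia response element): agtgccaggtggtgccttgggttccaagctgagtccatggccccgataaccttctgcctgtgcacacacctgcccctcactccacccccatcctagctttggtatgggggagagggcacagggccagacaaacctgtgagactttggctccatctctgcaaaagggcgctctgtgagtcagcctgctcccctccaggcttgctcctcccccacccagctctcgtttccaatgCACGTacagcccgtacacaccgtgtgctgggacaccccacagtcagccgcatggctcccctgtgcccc
HMGCS1, the synthase that makes HMG-CoA (chr5:43313363-43313662, minus strand; CCAAT, the box bound by NF-Y): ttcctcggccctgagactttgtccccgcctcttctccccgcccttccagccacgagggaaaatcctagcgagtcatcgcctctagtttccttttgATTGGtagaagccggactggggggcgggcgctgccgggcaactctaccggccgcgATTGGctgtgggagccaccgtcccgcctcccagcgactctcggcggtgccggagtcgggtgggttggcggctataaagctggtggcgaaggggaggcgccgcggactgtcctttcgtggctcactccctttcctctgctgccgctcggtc
MT2A, a metallothionein (chr16:56608334-56608633, plus strand; TGCACNC or TGCGCNC, the core of the metal response element): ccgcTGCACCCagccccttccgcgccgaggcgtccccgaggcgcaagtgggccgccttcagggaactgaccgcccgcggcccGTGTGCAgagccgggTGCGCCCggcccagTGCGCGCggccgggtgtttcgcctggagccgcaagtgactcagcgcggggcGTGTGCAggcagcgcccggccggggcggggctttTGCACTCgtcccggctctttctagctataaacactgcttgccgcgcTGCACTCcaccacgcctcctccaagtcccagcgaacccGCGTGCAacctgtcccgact

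The EGR1 promoter held 2 CArG boxes, and a CArG box was found in 2 of 27 immediate early promoters in the table and in 1.29% of all 27305 promoters of that length. The core ACGTG stood in 12 of 22 promoters of hypoxia-induced genes and in 21.6% of all promoters. The CCAAT box stood in 15 of 18 promoters of cholesterol synthesis genes, in 59 of 69 histone promoters and in 35.7% of all promoters. The metal response core was found in 5 of 5 metallothionein promoters and in 29.3% of all promoters, and the MT2A promoter held 8 matches. The table held promoters of only 5 of the 13 measured metallothioneins. That core also stood in 12 of 22 glycolysis, 13 of 27 immediate early, 10 of 22 hypoxia-induced, 7 of 18 cholesterol synthesis and 12 of 69 histone promoters. ACGTG stood in 10 of 27 immediate early, 8 of 22 glycolysis, 4 of 18 cholesterol synthesis, 2 of 5 metallothionein and 11 of 69 histone promoters. A match describes letters in these windows and was not measured as binding.

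By its median, the list of immediate early genes was the furthest apart of 70 lists. Of 37 measured members, 33 were lower on the #3-1 arrays, 23 of them at least 2-fold, and none was higher, against 13.4% and 1.42% of all genes. Their median difference was -1.58. The median ratio of the group was -0.11 on both #3-1 arrays and 1.53 and 1.61 on the #4-7 arrays, so that the group stood near the common RNA on the arrays of one clone and above it on those of the other. The members that did not pass were FOSL1, at 0.38, IER5, at 0.03, MYC, at -0.19, and PLK3, at 1.18. With the first or the second #3-1 array left out 1 member was higher. In the single channels the median difference of the list was -1.50 in Cy3 and 0.03 in Cy5.

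FOSB and FOS encode partners of JUN in the AP-1 transcription factor. FOSB gave ratios of -0.44 and -0.56 on the #3-1 arrays and 5.12 and 5.13 on the #4-7 arrays, a difference of -5.62 ± 0.05 (SE, n = 2 arrays per clone; limma adjusted p = 1.1e-05), or 49.3-fold. Its Cy5 signal was also lower on the #3-1 arrays, by a log2 difference of -0.83, against -6.51 in Cy3. Several other leading members shifted in the same way in Cy5, FOS by -0.61, NR4A1 and NR4A2 by -0.71 and -0.70, 2 of the CCN1 probes by -0.78 and -0.83 and JUN by -0.42, so that their ratios differed less than their Cy3 levels. EGR1 shifted the other way, by 0.39, and 15 of the 37 members had a Cy5 difference below 0. FOS gave -0.21 and -0.31 against 4.47 and 4.45, a difference of -4.72. For neither gene did the arrays of the clones come near each other. JUN gave -0.51 on both #3-1 arrays and 3.09 and 3.12 on the #4-7 arrays, a difference of -3.62, while JUNB and JUND differed by -0.96 and -0.56.

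The zinc finger factors of the EGR family and the NR4A orphan nuclear receptors are classic members of the same response. EGR1, whose promoter is printed above, gave -0.91 and -0.93 against 2.91 and 3.00, a difference of -3.87 (14.6-fold). EGR2 gave -0.60 and -0.72 against 3.46 and 3.40. NR4A2 gave -1.42 and -1.49 against 3.00 and 2.99, and thus lay below the common RNA on the #3-1 arrays and above it on the #4-7 arrays. NR4A3 differed by -3.99 at one probe, and at a second probe, not well above background in Cy3 on the #3-1 arrays, its Cy3 level was at least 13.4-fold lower (limma adjusted p = 6.7e-06 for Cy3). The NR4A1 probes disagreed in size, with differences of -3.85 and -0.55.

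CCN1 and CCN2 encode secreted matricellular proteins that are also targets of YAP and TEAD. The 3 CCN1 probes differed by -5.20, -4.40 and -4.20. CCN2 gave -1.10 and -1.13 against 2.43 and 2.34, a difference of -3.50 ± 0.05 (SE). The other YAP and TEAD targets did not follow in 1 direction: of 20 measured, 5 were lower and 5 higher, with a median of 0.01, and F3, the tissue factor gene, was higher by 1.01. With any 1 array left out 3 to 4 of them were lower and 2 to 3 higher. ERK feedback genes had 5 lower and 5 higher of 16, and with any 1 array left out 5 were lower and 1 to 2 higher. DUSP6, the phosphatase that removes activating phosphates from ERK, gave -1.16 on both #3-1 arrays and 0.93 and 0.90 on the #4-7 arrays, and ETV1 differed by -1.72, while DUSP5 and ETV5 were higher by 0.31 and 0.38.

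**Figure D2:**
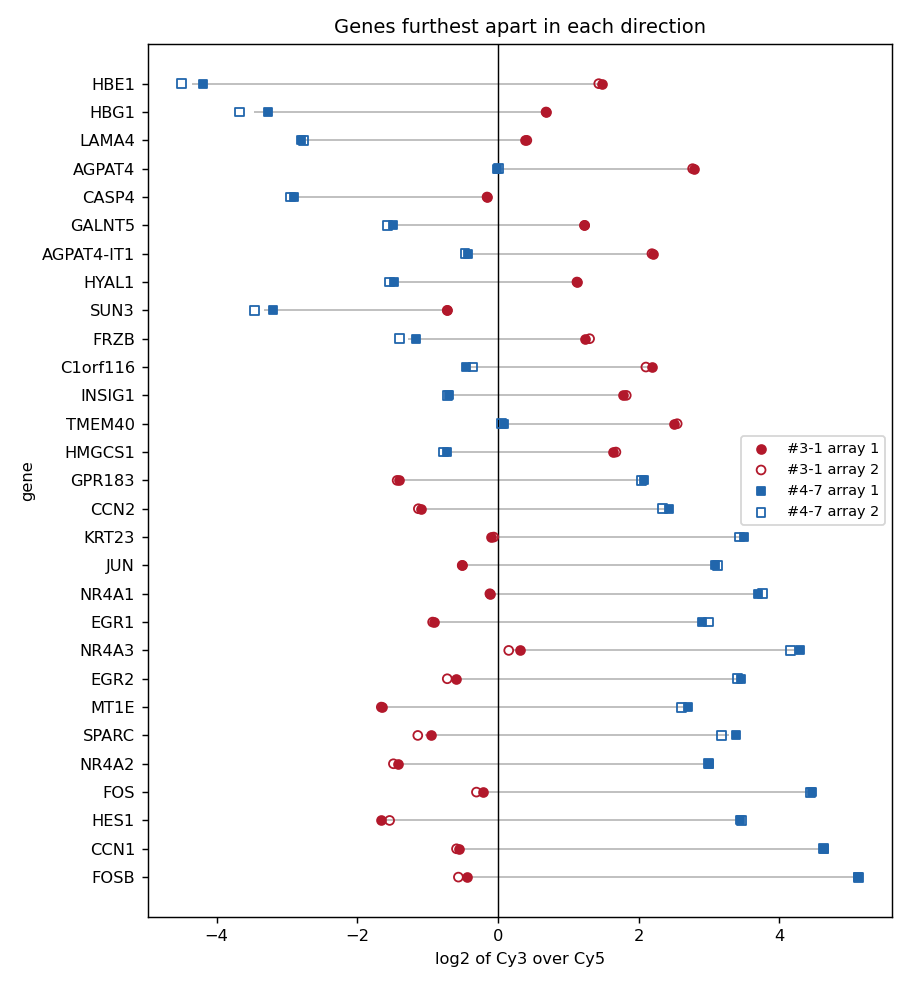
Log2 ratio of Cy3 over Cy5 (horizontal axis) of genes among the 15 with the largest difference in each direction, 1 row per gene, with circles for the #3-1 arrays and squares for the #4-7 arrays, filled for array 1 and open for array 2; the grey line joins the means of the clones. The genes were chosen by the size of their difference among probes past limma p under 0.001. Close arrays and separate clones follow from that choice. The rows run from HBE1 at 1.48 and 1.43 against -4.19 and -4.50 to FOSB at -0.44 and -0.56 against 5.12 and 5.13.

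Notch signalling is read out by HES and HEY repressors after a ligand such as JAG1 binds a receptor on a neighbouring cell. HES1 gave -1.66 and -1.54 on the #3-1 arrays and 3.45 and 3.47 on the #4-7 arrays, a difference of -5.06 ± 0.05 (SE; 33.2-fold, limma adjusted p = 1.1e-05), and its other probes differed by -4.48 and -2.18. The ligand JAG1 gave -0.98 on both #3-1 arrays and 1.60 and 1.61 on the #4-7 arrays. NOTCH4 and the glycosyltransferase LFNG were lower by log2 differences of -1.39 and -1.10, and MFNG, another enzyme of that family, was higher by 1.34. On the list of Notch ligands and receptors 3 of 12 genes were lower and 2 higher, with a median of 0.03. The higher count fell without the second #3-1 array or either #4-7 array. HEY1 and HES4 differed by -0.58 and -0.39. Over the list of Notch targets and regulators only 6 of 20 genes were lower and 1 was higher, and the median was -0.04, so HES1 stood far from the rest of its list. With any 1 array left out 1 to 2 were lower and none was higher.

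TGF-beta and BMP signalling had 14 lower and 4 higher genes of 41, with a median of -0.15. BMP4, a secreted ligand, gave -2.57 and -2.58 on the #3-1 arrays and 0.68 and 0.63 on the #4-7 arrays, a difference of -3.23 ± 0.04 (SE). ID3 and SMAD7, genes that BMP and TGF-beta signals induce, differed by -1.90 and -1.91, and BAMBI, a decoy receptor, by -1.86. SMAD3, an effector of the TGF-beta branch, was higher by 0.80. Further ligand and feedback genes stood apart. FGF9, 1 of 2 lower genes among 26 FGF ligands and receptors, gave -3.44 and -3.41 against -0.80 and -0.82. The Wnt feedback gene AXIN2 gave -1.85 and -1.91 against 0.60 and 0.62. Wnt targets as a list were mixed, with 8 lower and 4 higher of 21, CD44 and DKK1 among the higher at 1.03 and 1.02. Without the second #4-7 array 5 Wnt targets were lower.

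Cholesterol synthesis was the list with the largest share of genes higher on the #3-1 arrays. Of 25 measured genes 23 were higher and none lower, 13 of them at least 2-fold, against 14.3% and 1.63% of all genes, and the median difference was 1.02. The group's median ratio was 0.71 and 0.68 on the #3-1 arrays and -0.28 and -0.30 on the #4-7 arrays. HMGCS1 gave 1.64 and 1.68 against -0.73 and -0.78, a difference of 2.41 ± 0.04 (SE; 5.31-fold, limma adjusted p = 2.3e-05), and its second probe 2.33. INSIG1, which holds the SREBP escort protein in the endoplasmic reticulum and is itself an SREBP target, gave 1.78 and 1.83 against -0.69 and -0.72. MSMO1, a sterol demethylase, and FDFT1, the squalene synthase, were higher by 1.99 and 1.60. The genes that did not pass were PMVK, at -0.09, and TM7SF2, at -0.21.

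Of 23 genes of fatty acid synthesis 14 were higher, 5 of them at least 2-fold, and 1 was lower, with a median of 0.36. SCD, the desaturase that makes oleate, gave 1.09 and 0.99 against -0.67 and -0.68, and its other probes differed by 1.33 and 1.03. ACSS2, which makes acetyl-CoA from acetate, and FASN, the fatty acid synthase, were higher by 1.53 and 1.17. SCD5, a second desaturase, was lower by a log2 difference of -0.47 at its brightest probe and did not pass at its others.

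Hypoxia-induced genes were higher in 19 of 26 cases, 13 of them at least 2-fold, with 1 lower and a median difference of 1.02. Their median ratio was 0.44 and 0.45 on the #3-1 arrays and -0.59 and -0.55 on the #4-7 arrays. CA9 gave 1.54 and 1.52 against -0.66 and -0.58, a difference of 2.15 ± 0.05 (SE; limma adjusted p = 3.1e-05). NDRG1, a stress-responsive gene, gave 0.92 and 0.96 against -1.21 and -1.26. BNIP3, a mitochondrial protein of mitophagy, and ANGPTL4, an inhibitor of lipoprotein lipase, were higher by 1.71 and 1.59. HIF1A itself was higher by 0.52 and EPAS1, which encodes HIF-2 alpha, by 1.33. ADM, the vasodilator peptide adrenomedullin, stood on the opposite side, at -0.61 and -0.63 against 0.82 and 0.81. SLC2A1, the glucose transporter shared with the glycolysis list, differed by -0.28 and did not pass, and LOX and STC1 were not well above background in Cy3 on any array.

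Glycolysis had 13 of 24 genes higher, 5 of them at least 2-fold, and none lower, with a median of 0.54. ALDOC, an aldolase, gave 1.15 on both #3-1 arrays and -1.17 and -1.25 on the #4-7 arrays. ENO2, an enolase, and HK2, a hexokinase, were higher by 1.66 and 1.53. GAPDH, often used as a reference for RNA amounts, gave 0.38 and 0.41 against -0.53 and -0.55, a difference of 0.94, and PGK1 differed by 0.83. These were the 2 of 15 reference genes that passed, and the median of that list was 0.07. Subunits of oxidative phosphorylation were higher in 27 of 81 cases and lower in none, with a median of 0.21 and none at 2-fold, and ATP5MJ was the furthest at 0.88. Mitochondrial ribosomal proteins were higher in 20 and lower in 2 of 77, while of 85 cytosolic ribosomal proteins 3 were higher and 1 lower, with a median of 0.00. These counts of small differences fell when any 1 array was left out, to 8 to 11 higher oxidative phosphorylation subunits, 5 to 9 higher and no lower mitochondrial ribosomal proteins, and 0 to 2 higher and 0 to 1 lower cytosolic ones.

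**Figure D3:**
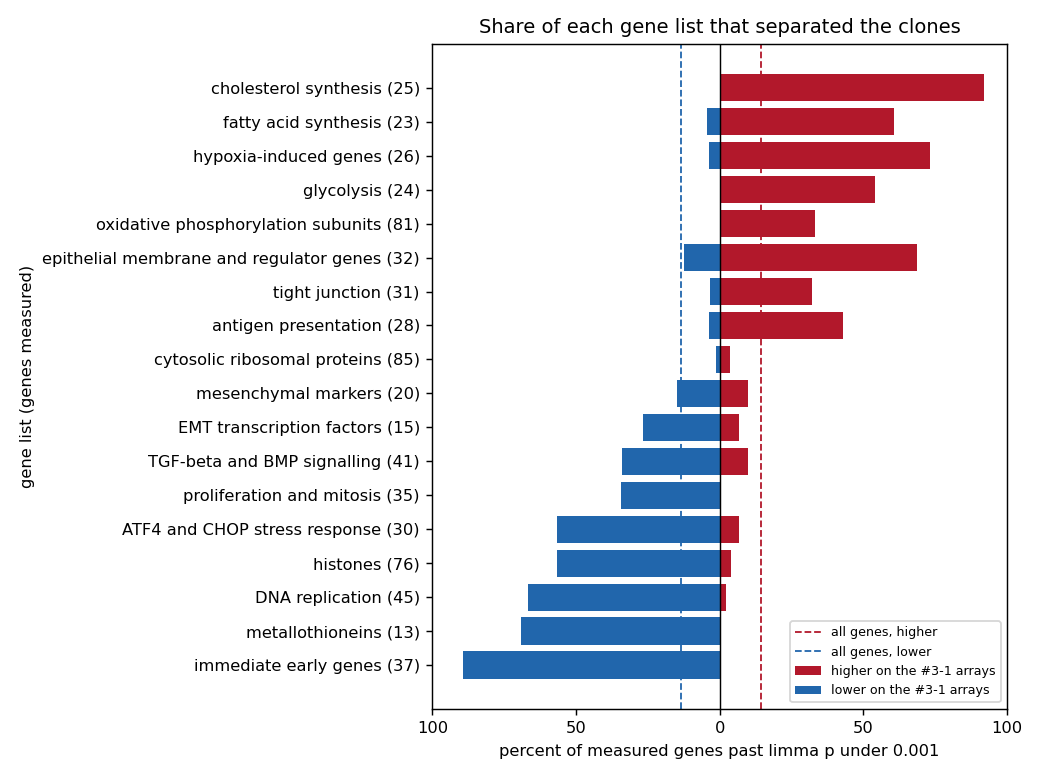
Percent of the measured genes of 18 lists (number measured in brackets) that passed limma p under 0.001, to the right for genes higher and to the left for genes lower on the #3-1 arrays; dashed lines give the shares over all 17531 genes, 14.3% and 13.4%. Cholesterol synthesis reached 23 of 25 to the right and the immediate early genes 33 of 37 to the left, while the cytosolic ribosomal proteins lay below both lines.

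Genes of DNA replication were lower in 30 of 45 cases and higher in 1, with a median of -0.49. The group's median ratio was -0.76 on both #3-1 arrays and -0.27 and -0.28 on the #4-7 arrays, below the common RNA in both clones. E2F2, a factor that drives S phase genes, gave -1.04 and -1.03 against 0.02 and 0.05 and was the only member at 2-fold. MCM10 and POLA1, which act at the start of replication, differed by -0.95 and -0.94, and UHRF1, which keeps DNA methylation through replication, by -0.87. POLE2, a subunit of polymerase epsilon, went the other way at 0.39 and lost its call with any 1 array left out. Of 35 mitosis and proliferation genes 12 were lower and none higher, with MKI67 at -0.50 and -0.55 against 0.51 and 0.54. With any 1 array left out 7 were lower. CDKN1A, the p21 inhibitor of cyclin-dependent kinases, gave 0.67 on both #3-1 arrays and -0.63 and -0.62 on the #4-7 arrays. The wider list of p53 targets was divided, with 8 higher and 4 lower of 30, and 5 higher without the first #4-7 array.

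Histone genes were lower in 43 of 76 cases, 13 of them at least 2-fold, and higher in 3, with a median of -0.40. H4C1 gave -1.41 and -1.46 against 0.13 and 0.08, and H3C4, H2AC12 and H3C7 differed by -1.33, -1.33 and -1.32. The 3 higher genes were H2AJ, H2BC12 and H2AC18, at 0.73, 0.58 and 0.54. Histone genes of a class are nearly identical in sequence, so a probe may read several of them and the count of genes is uncertain for that reason.

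**Figure D4:**
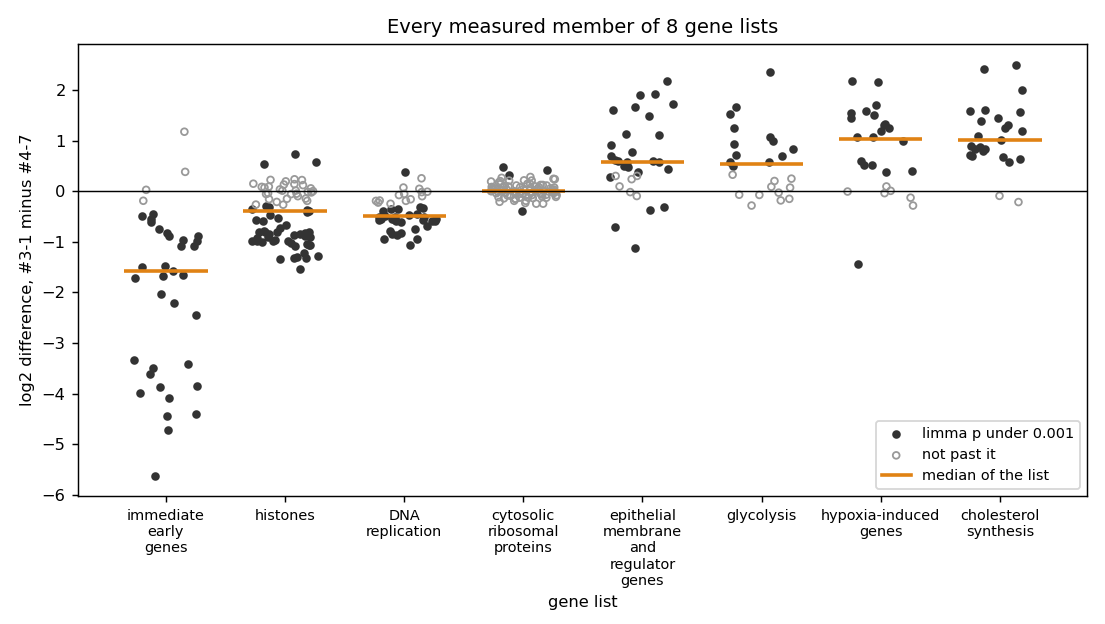
Log2 difference between the clones (vertical axis, Cy3 over Cy5, #3-1 minus #4-7 arrays) of each measured member of 8 gene lists (horizontal axis, points spread sideways for legibility); filled points passed limma p under 0.001, open points did not, and the bar is the list's median. The medians run from -1.58 for the immediate early genes through 0.00 for the cytosolic ribosomal proteins to 1.02 for the hypoxia-induced and the cholesterol synthesis genes.

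Epithelial membrane and regulator genes were higher in 22 of 32 cases, 9 of them at least 2-fold, and lower in 4, with a median of 0.57. Their median ratio was above 0 in both clones, at 1.04 and 1.05 on the #3-1 arrays and 0.41 and 0.43 on the #4-7 arrays. TMEM125, a membrane protein, gave 3.55 and 3.51 against 1.37 and 1.32. FXYD3, a regulator of the sodium pump, MAL2, which serves apical transport, and S100A14 were higher by 1.93, 1.90 and 1.71. Of the 4 lower genes 1 was lower at least 2-fold, and KLF5, ERBB3 and OVOL2 differed by -0.71, -0.37 and -0.31. With any 1 array left out 2 were lower. ERBB3 gave 0.22 and 0.24 at its other probes, which did not pass, so its direction rests on the probe.

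CDH1, which encodes E-cadherin, the adhesion protein of epithelial adherens junctions, gave 2.61 and 2.59 on the #3-1 arrays and 1.37 and 1.32 on the #4-7 arrays, a difference of 1.25 ± 0.04 (SE; 2.38-fold, limma adjusted p = 6.7e-05). It was above the common RNA in both clones and further above it in the first. Tight junction genes were higher in 10 of 31 cases and lower in 1, with CGN and CLDN4 higher by 1.48 and 1.17, and none was lower with the first or the second #4-7 array left out. NECTIN3, an adherens junction protein, went the other way at each of its 3 probes, by -2.12, -1.88 and -1.68.

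VIM, which encodes vimentin, the intermediate filament of mesenchymal cells, gave -4.46 and -4.44 on the #3-1 arrays and -2.39 and -2.37 on the #4-7 arrays, a difference of -2.07 ± 0.04 (SE; 4.20-fold, limma adjusted p = 2.5e-05), and its second probe differed by -1.73. It was far below the common RNA in both clones. The other mesenchymal markers were 2 higher and 2 lower genes beside VIM out of 20 measured. SPARC, a matrix protein, was not well above background in Cy3 on either #3-1 array. Its ratio stood at 3.38 and 3.18 on the #4-7 arrays, and its Cy3 level was at least 22.8-fold higher there (limma adjusted p = 6.7e-06 for Cy3). S100A4, a calcium-binding protein, gave 0.63 and 0.65 against 3.63 and 3.65, so it was above the common RNA in both clones. ACTA2 and MSN were higher, by 0.91 and 0.32, and with any 1 array left out 1 mesenchymal marker was higher. Of 15 transcription factors of the epithelial to mesenchymal transition 4 were lower and 1 higher, but 2 were lower with the first or the second #3-1 array left out and none was higher without the second #4-7 array. FOXC1 gave -1.10 and -1.07 against 1.89 and 1.91 at one probe and did not pass at its other, with -0.12. ZEB1, the repressor of CDH1, was not well above background in Cy3 on either #3-1 array, and its Cy3 level was at least 1.58-fold higher on the #4-7 arrays (limma adjusted p = 0.0015 for Cy3). SNAI1 and TCF3 differed by -0.63 and -0.32, and SNAI3 by 0.44.

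Keratins are filaments of epithelial cells whose genes lie in clusters. Of 53 measured, 9 were higher, 17.0% and near the 14.3% of all genes. Of these, 6 were at least 2-fold higher, against 1.63% of all genes. A further 2 were lower, 3.77%, and that count fell without the second #4-7 array. The median was 0.01, and 28 were not well above background in Cy3 on any array. KRT15 gave 1.84 and 1.80 against -0.23 and -0.21, and KRT34, KRT33A and KRT19 were higher by 1.84, 1.49 and 1.16. KRT23 stood apart in the other direction, at -0.10 and -0.06 against 3.50 and 3.44. Among laminins, proteins of the basement membrane, 6 of 12 were higher and 3 lower, or 1 lower without the second #4-7 array. LAMA4 gave 0.39 and 0.41 against -2.80 and -2.77, a difference of 3.19 ± 0.04 (SE; 9.10-fold), and LAMB3 and LAMA3 were higher by 1.01 and 0.84, while LAMB1 was lower at -1.51. Of 26 integrins 4 were higher and 3 lower, 15.4% and 11.5%, near the shares of all genes, with a median of 0.05. The integrin chains ITGAX and ITGA3 were higher by 1.17 and 1.02, and ITGB4 differed by -1.11.

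Genes of the ATF4 and CHOP stress response were lower in 17 of 30 cases and higher in 2, with a median of -0.41. ATF3, which is also an immediate early gene, gave 0.43 and 0.41 against 2.85 and 2.89, and PPP1R15A, the phosphatase subunit that restores translation, and SLC7A11, the cystine transporter, differed by -1.54 and -1.17. DDIT4, which hypoxia also induces, was higher by 0.98, and TRIB3 by 0.57. Metallothioneins were lower in 9 of 13 cases and higher in none, with a median of -0.77, and their median ratio was below 0 on every array. MT2A, whose promoter is printed above, gave -2.09 and -2.23 against -0.96 and -1.07. The MT1E probes disagreed, with -4.30 at one and -0.77 at the brighter, and probes of these near-identical genes may read one another's RNA. Of 47 genes of xenobiotic metabolism 8 were higher and 6 lower, 17.0% and 12.8%, near the shares of all genes, with a median of 0.05. Among them the antioxidant enzyme NQO1 and the cytochrome CYP1B1 differed by -1.55 and -1.48. ALDH1A3, which makes retinoic acid, gave 2.51 and 2.48 against 0.21 and 0.16.

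Several genes of cell death separated the clones. CASP4 and CASP5, the inflammatory caspases that sense cytosolic lipopolysaccharide, lie side by side on chromosome 11. CASP4 (probe at chr11:104318839-104318898, hg17) gave -0.14 and -0.19 on the #3-1 arrays and -2.90 and -2.89 on the #4-7 arrays, a difference of 2.72 ± 0.04 (SE; 6.61-fold, limma adjusted p = 1.6e-05), and its second probe gave 2.77. CASP5 gave -0.31 and -0.27 against -2.67 and -2.72. Both were thus near the common RNA on the arrays of one clone and far below it on those of the other. CASP1, CASP12 and CARD16, in the same stretch, were not well above background in Cy3 on any array. In the list of 12 caspases 3 were higher and 1 lower, 25.0% and 8.33%, against 14.3% and 13.4% of all genes. The other caspases past the threshold were CASP10, higher by 1.64 at its brightest probe, and CASP2, at -0.58. Among 11 inhibitors of apoptosis and their regulators 3 were higher, 27.3%, and none lower, with a median of 0.02. Over all genes 27.7% passed in either direction, so the count is near that share. BIRC3, which encodes the inhibitor cIAP2, gave 1.30 and 1.37 against -1.03 and -0.98, and BIRC2 and HTRA2, a protease that counters the inhibitors, were higher by 0.63 and 0.43. XIAP gave -0.12 and -0.09 against -0.16 and -0.08, a difference of 0.02 ± 0.05 (SE; limma adjusted p = 0.83). The BCL2 family was divided, with 5 higher and 5 lower of 20, 25.0% in each direction. When any 1 array was left out 2 to 3 were higher and 1 to 2 lower.

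The largest difference of the ratio belonged to the embryonic globin gene HBE1, in the beta-globin locus of chromosome 11. HBE1 (probe at chr11:5247438-5247619, hg17) gave 1.48 and 1.43 on the #3-1 arrays and -4.19 and -4.50 on the #4-7 arrays, a difference of 5.80 ± 0.10 (SE; 55.7-fold, limma adjusted p = 2.3e-05), and its second probe 5.43. By the deposited LogRatio the first probe differed 92.3-fold, a log2 difference of 6.53, which was smaller in size than that of SPARC, -6.85. In Cy3 alone its difference of 5.71 was smaller in size than that of FOSB. The fetal globin gene HBG1 gave 0.69 and 0.68 against -3.27 and -3.67 at one probe, and at the other, not well above background in Cy3 on the #4-7 arrays, its Cy3 level was at least 9.68-fold higher (limma adjusted p = 1.4e-05 for Cy3). The first HBG1 probe differed 17.9-fold in the ratio and 61.7-fold by the deposited LogRatio. HBG1 and HBG2 are nearly identical, so the probes cannot assign the signal to one of them. The adult genes HBB and HBD lay 44.1 and 36.7 kb from HBE1 and were at or near background in Cy3 in both clones, with differences of 0.02 and 0.10 that did not pass. On the other side of HBE1 the olfactory receptor genes OR51B4, OR51B2 and OR51B5 were at least 2.06, 2.56 and 2.08-fold higher in Cy3, being not well above background in that channel on the #4-7 arrays (limma adjusted p = 0.00011, 7.5e-05 and 0.00068 for Cy3). Of 34 probes within 500 kb 10 passed and 7 of these reached 2-fold, all higher, against 22.5% and 2.48% of all probes. The window was centred on the gene with the largest difference of the ratio, and the 7 include the HBE1 and HBG1 probes. Of the 34, 14 were not well above background in Cy3 on any array. The alpha-globin genes HBA2 and HBA1 went the other way, at -0.99 and -0.79. Of 15 erythroid markers 1 was higher and 2 were lower, and ALAS2, GATA1 and RHAG were not well above background on any array.

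**Figure D5:**
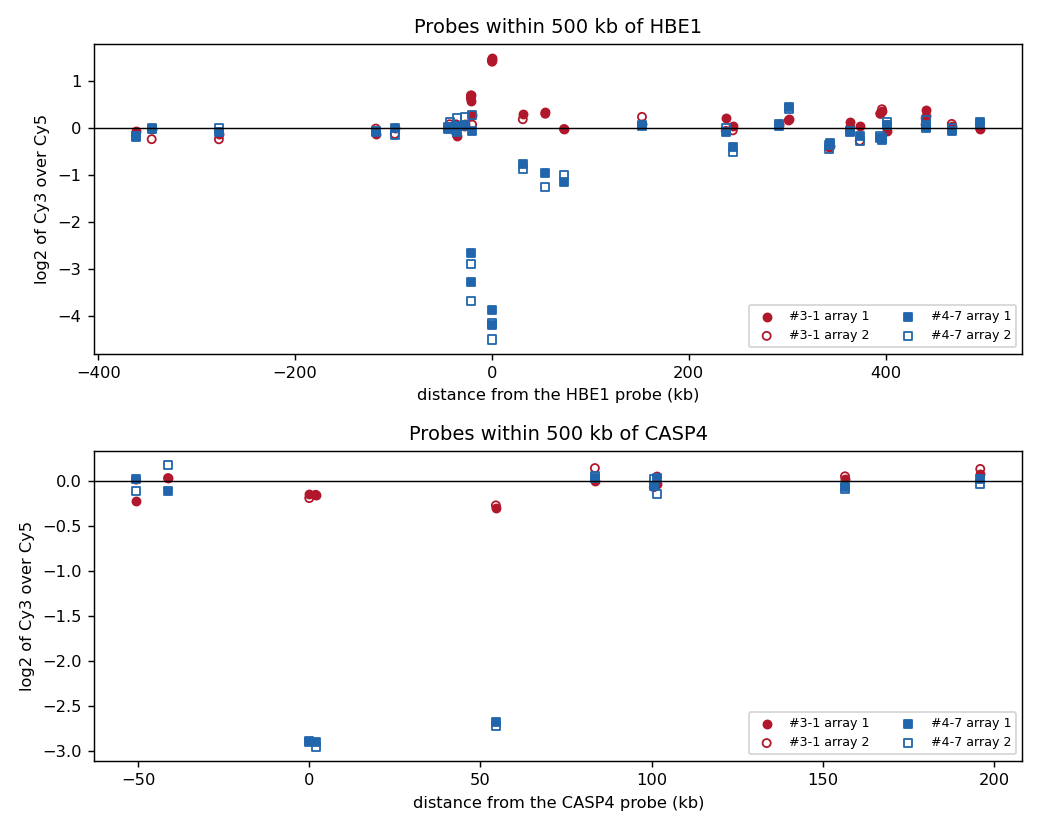
Log2 ratio of Cy3 over Cy5 (vertical axis) of each probe by its distance in kb from the HBE1 probe (top) and the CASP4 probe (bottom), with circles for the #3-1 arrays and squares for the #4-7 arrays, filled for array 1 and open for array 2. Around HBE1 7 of 34 probes differed at least 2-fold and around CASP4 3 of 10, with the #4-7 arrays down to -4.50 and -2.95. The share of all probes was 2.48%. The 7 include the HBE1 and HBG1 probes, and the 3 are those of CASP4 and CASP5. Not well above background in Cy3 on any array were 14 of the 34 and 7 of the 10.

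The olfactory receptor and globin genes formed 1 of 8 runs of at least 3 genes that all differed 2-fold in 1 direction with gaps under 500 kb. A 2-fold difference was met by 535 of all 17531 genes, 3.05%. How many runs that share would give was not tested. The longest others were 7 genes on chromosome 17, KRTAP3-1, KRT33A, KRT34, KRT32, KRT13, KRT15 and KRT19, all higher, and 7 histone genes on chromosome 6, from H4C1 to H3C7, all lower, within stretches that held 31 and 27 measured genes. Other genes measured inside a run did not reach 2-fold past the threshold at their brightest probe. KRT23, lower by a log2 difference of -3.55, lay beside the keratin run, with its probe at chr17:36332488-36332547 (hg17). The KRTAP3-1 probe starts at 36418369. A second histone run held H2AC14, H4C11 and H2AC15. The drug exporter gene ABCG2 stood in a run with PPM1K and FAM13A-AS1 on chromosome 4, at 1.28, 1.16 and 1.35, and EZR, which encodes the membrane linker ezrin, in a run with SYTL3 and DYNLT1 on chromosome 6, at 1.57, 2.11 and 1.30. CYP4F8, CYP4F12 and CYP4F11 on chromosome 19 were higher by 1.24, 1.04 and 1.21. NECTIN3, ZBED2 and PHLDB2 on chromosome 3 formed the only lower run outside the histones. The median difference lay between -0.03 and 0.02 on each of 23 chromosomes.

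For 14 genes, each by its brightest probe, the clones lay at least 2-fold on opposite sides of the common RNA on all 4 arrays. Of these, 6 were higher and 8 lower on the #3-1 arrays. The higher ones were HBE1, GALNT5, HYAL1, ALDOC, CPA4 and FRZB. GALNT5, which starts mucin-type glycosylation, gave 1.22 and 1.23 against -1.50 and -1.57. FRZB, a secreted Wnt antagonist, gave 1.18 and 1.25 against -1.12 and -1.06. The lower ones were HES1, NR4A2, CCN2, GPR183, FOXC1, SLC16A6, CXCR4 and ETS2. Some weaker probes of ETS2, CPA4, HYAL1, HES1 and FOXC1 fell short of that rule. At one of these ETS2 gave -0.80 and -0.74 against 0.79 and 0.80. The weaker FOXC1 probe gave -0.30 and -0.34 against -0.22 and -0.18, on the same side in both clones. CXCR4, the receptor of the chemokine CXCL12, gave -1.22 and -1.18 against 1.04 and 1.03, and GPR183, an oxysterol receptor, gave -1.41 and -1.43 against 2.08 and 2.04. AGPAT4, an acyltransferase of phospholipid synthesis, gave 2.79 and 2.77 against -0.02 and 0.00 at its brightest probe. There it stood away from the common RNA on the arrays of 1 clone and at it on those of the other. Another AGPAT4 probe gave 1.72 and 1.68 against 0.42 and 0.38, a difference of 1.30, and was above the common RNA in both clones. A weaker AGPAT4 probe was not well above background in Cy3 on the #4-7 arrays. Its Cy3 level was at least 1.89-fold higher on the #3-1 arrays (limma adjusted p = 0.00036 for Cy3). A probe assigned to AGPAT4-IT1, a transcript inside AGPAT4, differed by 2.64 and cannot be told apart from its host by name alone.

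Genes of antigen presentation were higher in 12 of 28 cases and lower in 1, with HLA-DQB1, HLA-DRB1 and PSMB9 at 0.81, 0.80 and 0.72. Interferon-induced genes were divided, with 10 higher and 5 lower of 46, 21.7% and 10.9%, against 14.3% and 13.4% of all genes. Among the interferon-induced genes RIGI stood at 0.80 and IFI6 at -0.72. With any 1 array left out 6 to 8 of these were higher and 3 to 4 lower, and no antigen presentation gene was lower unless the array left out was the second #3-1 array. Of 24 genes of plasminogen activation and serpins 4 were higher, 16.7% and near the 14.3% of all genes. A further 7 were lower, 29.2% against 13.4% of all genes, and the median was 0.04. The protease PLAU was higher by 1.18 and SERPINB5 by 1.27, while SERPINE2 and SERPINF1 differed by -1.69 and -1.53.

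Markers of cell types other than epithelium were partly at background in Cy3, and their part in the differences was not tested. Of 18 leukocyte markers PTPRC, CD3D, CD3G, MS4A1, NKG7 and FCGR3A were not well above background on any array, and the median Cy3 level of the list was 7.18 log2 units on the #3-1 and 6.89 on the #4-7 arrays. CSF1R, CD68 and CD33 were higher, by 1.91, 1.77 and 1.09, and CD79A was lower at -0.36. Fibroblast markers had 2 lower of 13, COL1A1 at -0.54 and FBLN1 at -0.39, and 8 not above background. Endothelial markers had 1 lower of 12, with 7 not above background, and neural markers 1 higher and 2 lower of 15, with 8 not above background. The lower leukocyte and endothelial genes lost their call with any 1 array left out, and so did the higher neural gene unless that array was the first #4-7 array. Lower fibroblast genes numbered 1 unless that array was the second #3-1 array, and lower neural genes numbered 1 without the second #3-1 or the first #4-7 array.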

How the data were processed

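RNA of 2 stable HCT116 clones was read on 4 2-colour arrays. The authors deposited, per spot, the intensity of the feature and its surrounding background, flags and the log10 ratio of Cy5 over Cy3 for each array, written by Agilent Feature Extraction (8.5.1.1 in the submitters' processing notes; the file headers name another version), without pooling. The deposited score table holds the same ratios, rounded. From the deposited intensities, limma 3.58.1 in R 4.3.3 subtracted background (normexp, offset 50, all spots), applied loess within arrays and quantile scaling of the channels between arrays, and averaged spots of a probe after dropping 87 to 125 outlier spots per array. Control spots were left out. Clones were compared by a linear model with empirical Bayes, passing at p under 0.001 as in the methods (which name a log normalization within arrays, not loess), unadjusted, with Benjamini-Hochberg p-values beside it. Fold is 2 to the power of the log2 difference. Per array 68.5 to 71.8% of spots were well above background in Cy3, and precision is limited by how few arrays there are. For a probe not well above background in Cy3 on either array of a clone the fold given is a lower bound of the Cy3 difference, with the p of the Cy3 fit. For that clone's arrays the larger of the probe's own Cy3 signal and the lowest among bright probes was used, after loess and Aquantile. For SPARC, ZEB1 and the weaker HBG1 probe the own signal was the larger, so the bound is the measured Cy3 fold. The bound is open to dye bias because no dyes were swapped. Current symbols were found for 26834 of 41000 probes through RefSeq, giving 17531 genes, each represented by its brightest probe. Named genes were the 15 furthest apart in each direction, up to 4 per direction in each of 70 lists, genes central to the study, and, chosen after their values were seen, members that missed the threshold, a few well known list members, runs and genes on opposite sides. The members and lists were chosen with earlier results of these data known. A few of these genes are not reported here. Probe positions are of build hg17 and promoter positions of GRCh38.p14. Fits were tested on simulated data. Alternatives covered background, scaling, filter, variance, threshold, arrays, replicate block and probe choice. Python 3 scripts with pandas made the tables.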

Additional observations from a re-analysis of the deposited data

Results flagged for a closer look

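At 1017 probes the clones differed at least 2-fold with limma p under 0.001. By their brightest probes, 14 genes lay at least 2-fold on opposite sides of the common RNA on all 4 arrays. At those probes they would be called in opposite directions if each clone were compared with that RNA. Other probes of some of these genes fell short of that rule. In the single channels 7741 probes differed between the clones in Cy3, labelled as the empty vector, and 34 in Cy5, labelled as the clone. Of the 1017 probes 934 differed at least 2-fold in the same direction in Cy3 alone and 1 did so by at least 2-fold in Cy5. With 2 arrays a clone no array could be tested as an outlier.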

How the results depend on the processing

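No listed gene group leading the report turned direction under any of the 16 settings tried: the median difference stayed between -1.63 and -1.50 for the immediate early genes, 1.00 and 1.12 for cholesterol synthesis, 0.98 and 1.09 for the hypoxia-induced genes, 0.54 and 0.61 for the epithelial genes, -0.54 and -0.43 for DNA replication and -0.57 and -0.40 for the histones. Counts of calls moved more, and the cause was not tested. The 9220 probes became 4332 with normexp offset 0, 3448 with plain subtraction, 5793 with processed signals, 5957 with the deposited LogRatio, 15011 with an intensity trend, 17397 at an adjusted p under 0.05 and 4997 to 5801 when each array was left out. The 1017 probes at 2-fold became 1675 with processed signals. Cy3 probes numbered 3460 with offset 0, 4915 with processed signals and 4562 to 5980 without one array, and Cy5 probes 91 with processed signals and 116 to 567 without one array, the 567 without the second #3-1 array. Lower DNA replication genes numbered 19 with offset 0 and 14 with plain subtraction, lower histones 28 with plain subtraction, and higher epithelial genes 14 with the deposited LogRatio. Of 140 counts, 70 lists in each direction, 66 moved over 1.5 times when some array was left out. For some of the lists that the report counts these moves are given there. With the replicate block 7297 probes passed, but the numbers were not shown to pair the arrays (correlation of deviations -0.01). Of 401 named genes 137 at most lost their call under a background or scaling setting, and no gene past the threshold turned direction except under the median over all probes, where BID was -0.15, CEACAM1 0.012, ERBB3 0.073, MRPL49 0.16, PAICS -0.044 and SP100 0.12. The Cy3 level alone, added after seeing the data, kept the direction of each named gene that had passed and lost the call of 40. Probes near background are limited most: the deposited LogRatio gave CCN2 -5.25 in place of -3.50, and CA9 3.61 in place of 2.15, and the fold of 49 of 393 named genes past the threshold was over 1.5 times higher by it, of none over 1.5 times lower.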
